A study of Homo sapiens with 3 samples.

Results

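The genes described here are 8 serine proteases that sit at the cell surface and 2 inhibitors that act on such proteases, in the oral squamous carcinoma line CAL27 and in its drug-resistant derivatives. The proteases were TMPRSS13, TMPRSS15, TMPRSS4, TMPRSS11A, TMPRSS11D, TMPRSS11E, ST14 and PRSS8, and the inhibitors were SPINT1 and SPINT2. These 10 genes were taken by symbol from the 19220 genes of the count table. The group was selected on earlier results of these same data, namely the low TMPRSS13 and the high TMPRSS15 in the oxaliplatin-resistant cells, so these values are a description and are not a finding. Of the 10 genes, 8 averaged at least 10 counts per library and were tested, as were 13676 genes in all. TMPRSS11A and TMPRSS11D fell under that limit, and TMPRSS15 reached it only through the oxaliplatin-resistant cells.

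RNA-seq values of 3 lines were used, with 1 labelled library for each line. The tables also hold a second column named for each line, which has no sample label, may be a replicate and was not used. CAL27, labelled WT, grew in drug-free medium. CAL27/5FU, labelled 5-fluorouracil resistant, was kept in 10 μM 5-fluorouracil (5FU), a pyrimidine analogue that blocks thymidylate synthesis, and was derived by raising the dose in steps. CAL27/OXA, labelled oxaliplatin resistant, was kept in 10 μM oxaliplatin (OXA), a platinum compound that crosslinks DNA, and its derivation and whether either derivative is a clone are not given in the sources used here. Both resistant lines were in drug and the parental line was not, so the presence of the drug and the acquired resistance cannot be told apart. The libraries held 41786182 (CAL27), 37297713 (CAL27/5FU) and 43455488 (CAL27/OXA) counts. Counts were scaled to library size (CPM) with TMM factors, which correct for differences in RNA composition. A ratio is a log2 ratio of CPM with a prior count of 2, its bracketed range is the 95% Clopper-Pearson interval, which is exact, for the pair of counts, and ranges of single levels are exact 95% Poisson intervals. A fold is the ratio of CPM without the prior count, as is the interval, so for genes with few counts it is larger than the log2 ratio beside it. These intervals cover counting error only. With 1 library per line used here the spread between cultures was not measured, no difference has a replicate check, no p-value was computed, and "called" means only past 2-fold. Where a library had 0 counts, the fold is a bound set at 3 counts in that library, and the 95% interval reaches smaller differences than this bound. In RNA from whole cultures, fewer cells that express a gene and less of its RNA per cell cannot be told apart.

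Type II transmembrane serine proteases are anchored by a segment near their amino terminus and carry a trypsin-like catalytic domain outside the cell. They are made as inactive zymogens and are switched on by cleavage, often by each other. In surface epithelia, matriptase (ST14) and the membrane-linked protease prostasin (PRSS8) form an activation cascade that is needed for barrier formation and acts on the epithelial sodium channel, on protease-activated receptor 2 and on growth factor precursors. The Kunitz-type inhibitors HAI-1 (SPINT1) and HAI-2 (SPINT2) bind and block these enzymes at the membrane. TMPRSS15 is enteropeptidase, which activates trypsinogen in the duodenum and is known from there rather than from oral epithelium.

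The stretch around the catalytic serine is shown because it is the part that the 8 proteases share and the 2 inhibitors lack. Each run below is 42 coding bases, spliced, from the GENCODE 29 transcripts on GRCh38, 5′ to 3′, with the codon of the catalytic serine in capitals.
TMPRSS13: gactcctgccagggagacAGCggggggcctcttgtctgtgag
TMPRSS4: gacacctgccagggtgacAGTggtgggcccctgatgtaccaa
TMPRSS15: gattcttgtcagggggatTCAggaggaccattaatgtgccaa
TMPRSS11A: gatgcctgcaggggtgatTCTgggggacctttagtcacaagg
TMPRSS11D: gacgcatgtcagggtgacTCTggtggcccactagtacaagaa
TMPRSS11E: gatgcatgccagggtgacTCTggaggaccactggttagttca
ST14: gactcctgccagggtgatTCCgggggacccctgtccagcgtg
PRSS8: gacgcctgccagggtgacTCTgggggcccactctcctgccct

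In each of these 8 genes the stretch crosses an exon junction in the later part of the coding sequence. For TMPRSS13 it lay at chr11:117903778-117903970 on the minus strand, in exons 11 and 12 of 12. For TMPRSS15 it lay at chr21:18270095-18275208 on the minus strand, in exons 24 and 25 of 25, and for TMPRSS4 at chr11:118115269-118117334 on the plus strand, in exons 11 and 12 of 13. Those of ST14 (chr11:130209567-130209691, plus strand, exons 18 and 19 of 19) and PRSS8 (chr16:31132306-31132440, minus strand, exons 5 and 6 of 6) were at the last junction. The in-frame codons for glycine, aspartate or glutamate, any residue, glycine, glycine and proline were found in the longest coding sequence of 137 of 19669 coding genes (0.697%), the 8 proteases among them. The serine codon was AGC or AGT in TMPRSS13 and TMPRSS4 and began with TC in the other 6 proteases.

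TMPRSS13 and TMPRSS4 were the tested proteases that were lower past 2-fold in both resistant lines. TMPRSS13, also called mosaic serine protease large-form, had 333 counts in CAL27, then 30 in CAL27/5FU and 0 in CAL27/OXA. Its level per length was 2.83 FPKM (2.53 to 3.15) in CAL27, then 0.285 (0.193 to 0.408) in CAL27/5FU and 0 in CAL27/OXA, where the floor of 3 counts stands for 0.0245 FPKM. The gene was thus detected in the parental line, 11.2-fold lower in CAL27/5FU, and without a read in CAL27/OXA. Against CAL27 this was a log2 ratio of -3.40 (-4.07 to -2.94). CAL27/OXA was at least 127-fold lower than CAL27 and at least 11.3-fold lower than CAL27/5FU. This last difference lies between low levels and was -0.36 on the log2(FPKM + 1) scale, under 2-fold.

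TMPRSS4, an epithelial protease that is raised in many carcinomas, had 1227 counts in CAL27, then 305 in CAL27/5FU and 55 in CAL27/OXA. Its levels were 8.39 FPKM (7.93 to 8.88), 2.34 FPKM (2.08 to 2.61) and 0.362 FPKM (0.273 to 0.471), so no interval met another and the order of the lines was that of TMPRSS13. The log2 ratio to CAL27 was -2.01 (-2.20 to -1.83) in CAL27/5FU, or 4.04-fold lower. In CAL27/OXA it was -4.62 (-5.09 to -4.28), or 25.4-fold lower. CAL27/OXA was also 6.29-fold lower than CAL27/5FU.

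**Figure D1:**
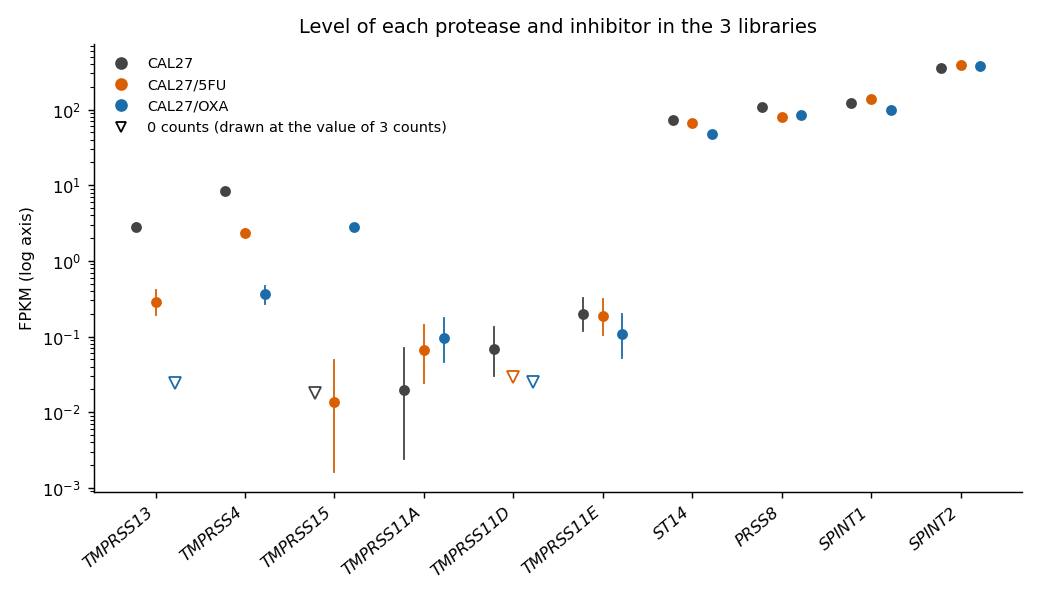
Level of each of the 10 genes in the 3 libraries as FPKM on a log axis. Points are single libraries, bars are exact 95% Poisson intervals, and open triangles mark 0 counts, drawn at the value of 3 counts. TMPRSS13 and TMPRSS4 step down from CAL27 to CAL27/OXA, TMPRSS15 is detected above 0.1 FPKM in CAL27/OXA alone, and ST14, PRSS8, SPINT1 and SPINT2 lie far above the other genes in every library.

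TMPRSS13 (chr11:117900643-117929459, minus strand) and TMPRSS4 (chr11:118077012-118121890, plus strand) are neighbours that point away from each other, with 148 kb between their starts. The span of TMPRSS4 overlaps that of SMIM35 on the opposite strand. Overlap of their exons was not examined, so whether they share reads is not known. The values of both proteases are from a shared stretch of chromosome 11, and the genes around them were examined. Of the 10 tested genes nearest to TMPRSS13, 2 were lower past 2-fold in CAL27/5FU (TMPRSS4 and SCN4B), beside 6.72% of all tested genes. None was higher, and the median log2 ratio was -0.23. In CAL27/OXA 1 was lower (TMPRSS4), beside 9.28%, and 1 higher (IL10RA), beside 6.54%, with a median of -0.27. IL10RA, an interleukin-10 receptor chain that lies between the 2 proteases, had 8 counts in CAL27, then 12 in CAL27/5FU and 36 in CAL27/OXA, so it was higher in CAL27/OXA (log2 ratio 1.76) where both proteases were lowest. SCN4B, a sodium channel subunit gene on the far side of TMPRSS4, had 121, 11 and 104 counts, and was low in CAL27/5FU (log2 ratio -3.26) but not in CAL27/OXA (-0.40). MPZL3 and CEP164 stayed within 2-fold in both lines, at -0.24 and -0.31 in CAL27/5FU and at -0.14 and -0.23 in CAL27/OXA. BACE1 stood at 0.39 in CAL27/5FU and -0.66 in CAL27/OXA, and MPZL2 at -0.85 and -0.32. Among these genes TMPRSS13 and TMPRSS4 were those lower past 2-fold in CAL27/OXA against CAL27.

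TMPRSS15 had the opposite pattern. It had 0 counts in CAL27, then 2 in CAL27/5FU and 475 in CAL27/OXA. Its level in CAL27/OXA was 2.77 FPKM (2.53 to 3.03), close to the 2.83 FPKM of TMPRSS13 in CAL27, while CAL27/5FU stood at 0.0136 FPKM (0.00165 to 0.0491) and the floor of 3 counts in CAL27, which had none, stands for 0.0182 FPKM. CAL27/OXA was at least 139-fold higher than CAL27. Against CAL27/5FU the log2 ratio with the prior count was 6.75 (5.85 to 10.8), and no exact fold is given, since CAL27/5FU had 2 counts, under the floor of 3. Between CAL27/5FU and CAL27 no fold is given either, since both were at or under 3 counts.

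TMPRSS15 spans chr21:18269116-18485879 on the minus strand, and this span overlaps that of AL109763.1 on the same strand. Overlap of their exons was not examined, so whether they share reads is not known. Around TMPRSS15, the nearest tested genes on either side, C21orf91 and NCAM2, differed. C21orf91 had log2 ratios of 0.29 in CAL27/5FU and 0.08 in CAL27/OXA. NCAM2, a neural cell adhesion molecule 2.89 Mb away, had 1, 7 and 29 counts in CAL27, CAL27/5FU and CAL27/OXA. NCAM2 averaged at least 10 counts only through CAL27/OXA, and its 1 count in CAL27 is under the floor of 3. JAM2, a junctional adhesion molecule further along, had 8, 20 and 47 counts, with log2 ratios of 1.14 and 2.12. Of the 10 nearest tested genes 2 (NCAM2 and JAM2) were higher past 2-fold in CAL27/OXA, beside 6.54% of all tested genes, and none lower, with a median of 0.34. In CAL27/5FU 3 were higher, beside 8.46%, and none lower, with a median of 0.24. These were NCAM2, JAM2 and NRIP1, the last with 1813, 4138 and 3456 counts and log2 ratios of 1.18 and 0.74. Nothing is read from these small numbers of neighbours.

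**Figure D2:**
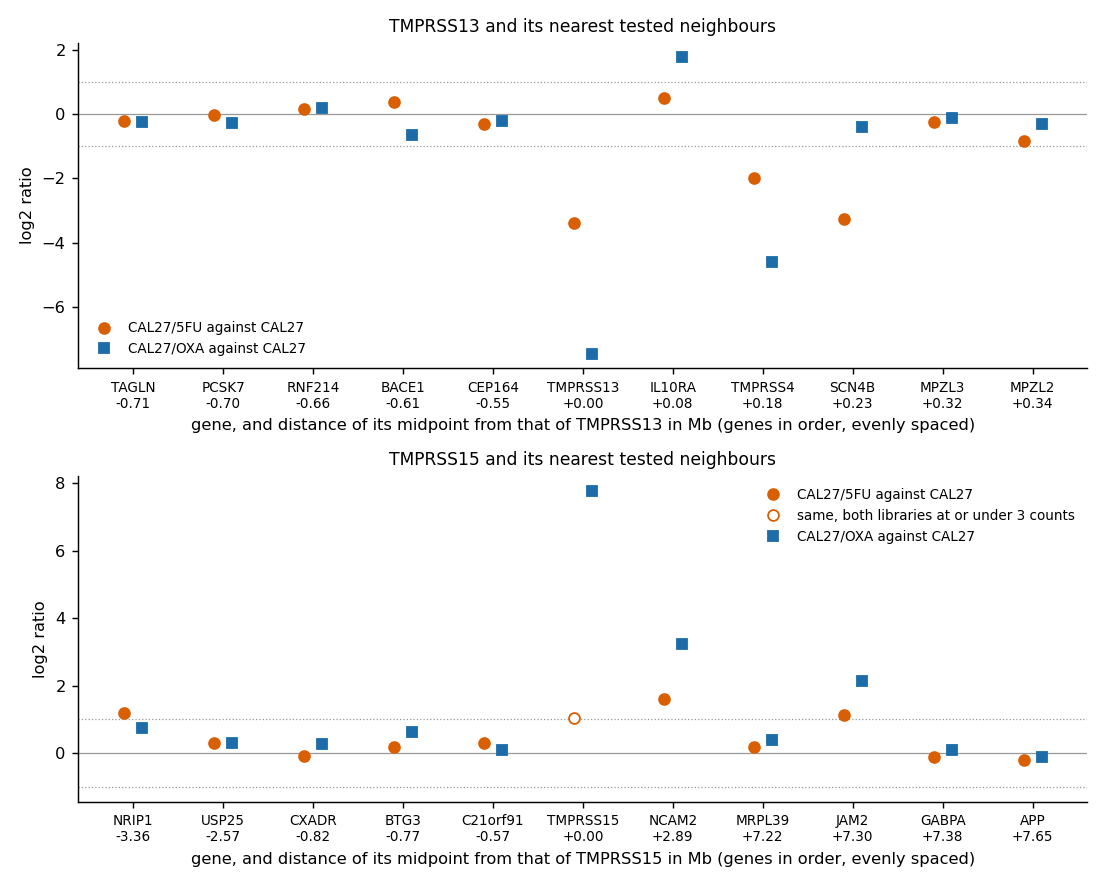
Log2 ratio to CAL27 of TMPRSS13 (top) and TMPRSS15 (bottom) and of the 5 nearest tested genes on each side, in chromosome order and evenly spaced, with the distance of each midpoint in Mb under the name. Circles are CAL27/5FU, squares CAL27/OXA, dotted lines 2-fold, and the open circle marks TMPRSS15 in CAL27/5FU, where both libraries had at most 3 counts. In the top panel TMPRSS4 stands low beside TMPRSS13 while IL10RA between them is at 1.76 in CAL27/OXA, and in the bottom panel TMPRSS15 stands far above its neighbours.

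The window before a RefSeq start of TMPRSS15 is shown because this gene had 0 counts in CAL27 and 475 in CAL27/OXA. These are the 250 bases before that start on the minus strand of GRCh38.p14, chr21:18403786-18404035, inside the GENCODE span of the gene, and the tables do not show which start the CAL27/OXA cells used. Capitals mark a match to TGANTCA, a loose form of the AP-1 motif that leaves the middle base open, at position -128 from the start. The middle base here is T, whereas the usual AP-1 motif has C or G there.
TMPRSS15: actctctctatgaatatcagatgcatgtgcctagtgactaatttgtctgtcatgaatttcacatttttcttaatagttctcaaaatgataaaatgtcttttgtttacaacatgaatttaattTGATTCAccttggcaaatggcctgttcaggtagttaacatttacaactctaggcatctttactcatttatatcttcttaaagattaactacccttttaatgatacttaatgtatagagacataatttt

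In this window, on both strands, there was 1 match to TGANTCA and none to CACCTG, the E-box core bound by SNAIL and ZEB factors, or to AACCNGGTT, a grainyhead motif. Of 35116 such windows of RefSeq starts, 6.57% held TGANTCA, 17.5% held CACCTG and 0.202% held AACCNGGTT. Among the other members, windows were given for TMPRSS11A, TMPRSS11D, TMPRSS11E and SPINT1. The only match among these was a CACCTG in 1 of the 2 windows of SPINT1, at position -26. A match is a description of the letters and not of binding.

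Enteropeptidase is known from the intestine, so a list of intestinal markers was read beside it. Of the 12 listed, 11 were found in the count table, and their summed counts were 13 in CAL27, then 46 in CAL27/5FU and 32 in CAL27/OXA. CDX1, CDX2, VIL1 and ALPI, which define enterocytes, had 0 counts in all 3 libraries. FABP2 had 2 counts in CAL27/OXA alone and SI 1 count in CAL27/5FU alone. MUC2, the secreted mucin of goblet cells, was the only listed gene to be tested, at 8, 21 and 23 counts, past 2-fold in both resistant lines. PRSS1, a trypsinogen and thus a substrate of enteropeptidase, had 0, 18 and 2 counts, and is uncertain because near-identical trypsinogen copies share its reads. The CAL27/OXA library thus held 475 counts of TMPRSS15 beside 32 counts of the 11 intestinal markers together.

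The genes with the patterns most like those of TMPRSS13 and TMPRSS15 were sought by the Euclidean distance over the 2 log2 ratios to CAL27 among the 12206 genes that averaged at least 50 counts. This is a likeness over 3 libraries, and where a library had 0 counts, as for TMPRSS13 in CAL27/OXA, it depends on the prior count. Nearest to TMPRSS13 was RBBP8NL, with 316, 18 and 0 counts in CAL27, CAL27/5FU and CAL27/OXA and a distance of 0.61. It was followed by ACKR3, an atypical chemokine receptor, with 1709, 75 and 5 counts, and by S100A7A, a calcium-binding protein of epidermis whose reads may be split with S100A7, with 2103, 335 and 28 counts. LY6D, a surface protein of stratified epithelia, had 916, 27 and 10 counts, and KCNK3, a potassium channel, had 382, 86 and 5. For TMPRSS15 the ratio in CAL27/5FU comes from 2 counts against 0, so its distances depend on the prior count and are not given, and the genes are named only as those the rule found. MYEF2, a nucleic acid binding protein, had 0, 20 and 511 counts, and LRRTM4, a synaptic adhesion protein, had 0, 20 and 292. LMCD1, a LIM domain protein, had 2, 4 and 151 counts, and CDH10, a cadherin, had 4, 30 and 223. TRIM49, which belongs to a family of near-identical copies and is uncertain for that reason, had 4, 25 and 251 counts.

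The TMPRSS11 proteases, which are known from airway and squamous epithelia and lie in a cluster on chromosome 4, were all near the limit of detection. TMPRSS11E (DESC1, chr4:68447449-68497604, plus strand) had 18 counts in CAL27, then 15 in CAL27/5FU and 10 in CAL27/OXA, or 0.202, 0.188 and 0.108 FPKM. Its log2 ratios were -0.24 (-1.36 to 0.80) in CAL27/5FU and -0.90 (-2.32 to 0.15) in CAL27/OXA, so neither interval left 0 and no difference was detectable at this depth. TMPRSS11A (chr4:67909385-67964140, minus strand) had 2, 6 and 10 counts, with ratios of 1.01 (-0.91 to 4.92) and 1.45 (-0.10 to 5.36) that also included 0. TMPRSS11D, the airway trypsin-like protease HAT (chr4:67820876-67884032, minus strand), had 8 counts in CAL27 and 0 in both resistant lines, at least 2.68-fold lower in CAL27/5FU and at least 3.04-fold lower in CAL27/OXA. The upper ends of its log2 intervals were -0.78 in CAL27/5FU and -0.96 in CAL27/OXA, each smaller than 2-fold and than the bound. The spans of TMPRSS11A and TMPRSS11D overlap that of UBA6-AS1, and strand use in the counting is not given. Overlap of exons was not examined, so whether reads are shared with UBA6-AS1 is not known. By the log2 ratio with the prior count, none of the 10 tested neighbours of any of the 3 genes was past 2-fold in any of the 3 comparisons. Of all tested genes 15.2% were past 2-fold in CAL27/5FU, 15.8% in CAL27/OXA and 12.6% between the resistant lines. TMPRSS11A and TMPRSS11D have the same neighbours and TMPRSS11E shares most of them, so this is largely 1 set of genes. Some of these neighbours lie more than 10 Mb away. TMPRSS11E, itself a neighbour of TMPRSS11A and TMPRSS11D, was 2.05-fold lower in CAL27/OXA than in CAL27 without the prior count.

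ST14 and PRSS8 carried almost all of the protease RNA and differed by less than 2-fold between lines. Matriptase, ST14 (chr11:130159562-130210376, plus strand), had 9956 counts in CAL27, then 8188 in CAL27/5FU and 6810 in CAL27/OXA, or 72.2, 66.5 and 47.5 FPKM. CAL27 was the highest and CAL27/OXA the lowest. The log2 ratio to CAL27 was -0.29 (-0.33 to -0.25) in CAL27/5FU and -0.74 (-0.78 to -0.69) in CAL27/OXA, which was 1.67-fold lower. It lies on the same chromosome arm as TMPRSS4, 12082.5 kb from start to start.

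Prostasin, PRSS8 (chr16:31131433-31135762, minus strand), had 8539, 5547 and 6823 counts, or 109, 79.4 and 83.9 FPKM. Here CAL27/5FU was the lowest line, with a log2 ratio to CAL27 of -0.63 (-0.68 to -0.58), or 1.55-fold lower. CAL27/OXA followed at -0.51 (-0.56 to -0.47), and it was 1.08-fold higher than CAL27/5FU. The order of the 2 resistant lines was therefore that of TMPRSS13 and TMPRSS4 for ST14 and the reverse for PRSS8. For PRSS8 the log2 ratio between these lines was 0.12, beside a median absolute log2 ratio of 0.29 over all tested genes, so little weight rests on its order. The span of PRSS8 overlaps that of AC009088.3, and whether these genes share reads in exons was not examined.

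The inhibitors stayed within 2-fold in every comparison, and SPINT2 was the most abundant of the 10 genes in each library. HAI-1, SPINT1 (chr15:40844018-40858207, plus strand), had 12174 counts in CAL27, then 12570 in CAL27/5FU and 10476 in CAL27/OXA, or 121, 140 and 99.97 FPKM. Its log2 ratio to CAL27 was 0.04 (0.0032 to 0.08) in CAL27/5FU and -0.41 (-0.44 to -0.37) in CAL27/OXA, or 1.33-fold lower. The difference was thus small in CAL27/5FU and larger, though within 2-fold, in CAL27/OXA. SPINT1 overlaps SPINT1-AS1.

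HAI-2, SPINT2 (chr19:38244035-38292614, plus strand), had 25504, 25075 and 27800 counts, or 355, 391 and 373 FPKM. Its log2 ratios of -0.03 in CAL27/5FU and -0.07 in CAL27/OXA were small. Both turned positive under scaling by total counts or with the deposited FPKM, and that of CAL27/5FU also under the upper quartile, so no direction is given. SPINT2 overlaps PPP1R14A, which had 0, 0 and 1 counts, and AC011479.1.

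Set side by side per length, the 8 proteases summed to 193 FPKM in CAL27, then 149 in CAL27/5FU and 135 in CAL27/OXA. Both inhibitors together summed to 476, 531 and 472 FPKM. These FPKM are scaled by total counts alone, so the sums are not compared between lines. With TMM scaling the log2 ratios to CAL27 of SPINT1 and SPINT2 were 0.04 and -0.03 in CAL27/5FU, and -0.41 and -0.07 in CAL27/OXA. Within each library, which no scaling affects, inhibitor RNA was 2.47 times protease RNA in CAL27, 3.57 times in CAL27/5FU and 3.51 times in CAL27/OXA. ST14 and PRSS8 made up 94.0% of the protease FPKM in CAL27, and 98.1% and 97.5% in CAL27/5FU and CAL27/OXA. The large changes were thus in genes that held a small share of the protease RNA, and these sums are of RNA and not of active enzyme.

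**Figure D3:**
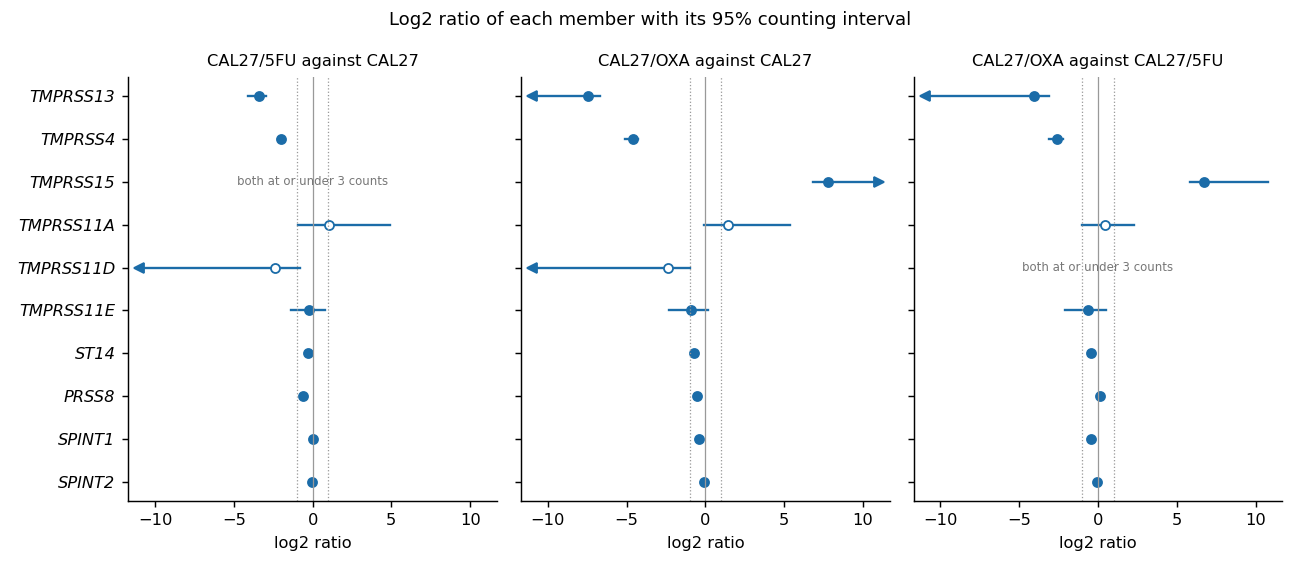
Log2 ratio of each of the 10 genes in the 3 comparisons, with exact 95% Clopper-Pearson counting intervals as bars and arrows where the interval has no end because a library had 0 counts. Filled points were tested, open points averaged fewer than 10 counts, and dotted lines mark 2-fold. TMPRSS13 and TMPRSS4 lie left of the lines in every panel, TMPRSS15 right of them in both comparisons of CAL27/OXA, and ST14, PRSS8, SPINT1 and SPINT2 between them throughout.

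Of the 8 tested members, 2 were called lower in CAL27/5FU against CAL27 (TMPRSS13 and TMPRSS4) beside 6.72% of all tested genes. TMPRSS15 was past 2-fold on the prior-count scale, beside 8.46% of all genes called higher (15.2% in either direction), but from 2 counts against 0. In CAL27/OXA against CAL27, 2 were called lower beside 9.28% and 1 higher beside 6.54% (15.8% in either direction). In CAL27/OXA against CAL27/5FU, 2 were called lower beside 8.38% and 1 higher beside 4.18% (12.6% in either direction). Since the members were chosen by such values, nothing is read from these shares. The 5 other tested members were within 2-fold in each comparison by the log2 ratio with the prior count. Without the prior count TMPRSS11E was 2.05-fold lower in CAL27/OXA than in CAL27. The median of the 8 was -0.27 in CAL27/5FU, -0.63 in CAL27/OXA and -0.45 between the resistant lines, beside medians of -0.0035, 0.0055 and 0.0079 over all tested genes. CAL27/5FU and CAL27/OXA are compared with the same CAL27 library. Of the called genes in CAL27/5FU 55.7% were higher with TMM scaling and 67.2% with total counts. In CAL27/OXA the share was 41.3% with TMM scaling and 51.1% with total counts, so there the balance turned over.

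**Figure D4:**
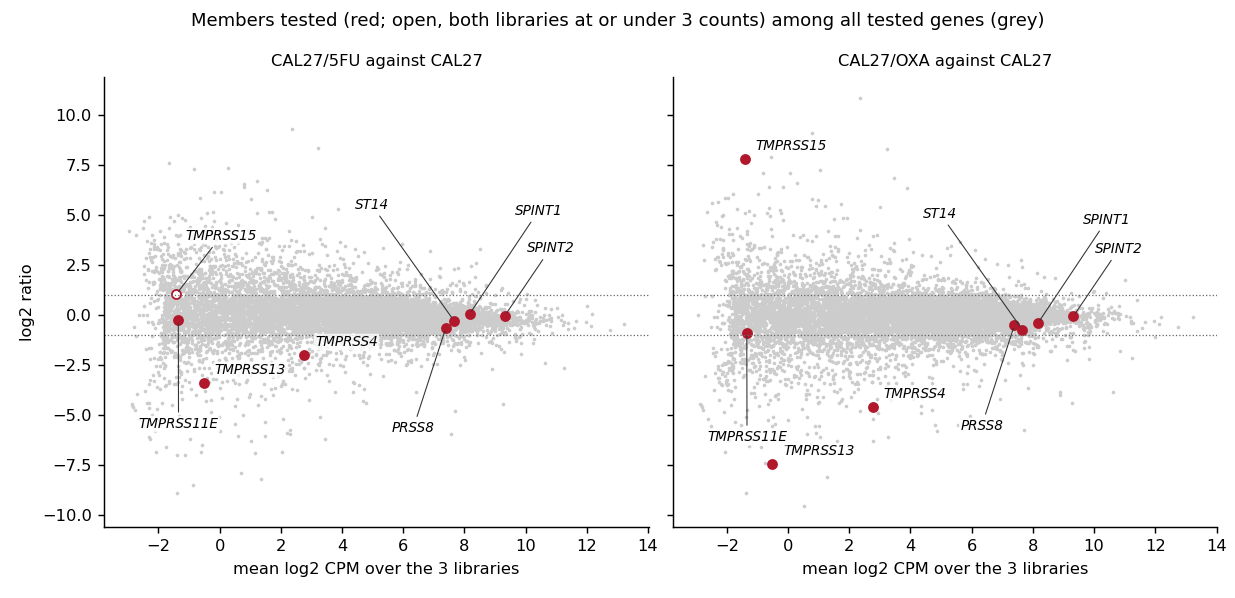
Log2 ratio to CAL27 against mean log2 CPM over the 3 libraries for all 13676 tested genes (grey) and the 8 tested members (red), with CAL27/5FU on the left and CAL27/OXA on the right and dotted lines at 2-fold. TMPRSS13 and TMPRSS15 lie at the lower and upper edges in CAL27/OXA at low mean CPM, TMPRSS4 lies below the lines in both panels, and the abundant members lie within them. The open symbol is TMPRSS15 in CAL27/5FU, where both libraries had at most 3 counts.

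The identity of the cells was read from the squamous epithelial markers, all 12 of which were tested. Their summed level was 14119 CPM in CAL27 but 3070 in CAL27/5FU and 3781 in CAL27/OXA, and none was at 0 in any library. In CAL27/5FU 10 were lower past 2-fold, beside 6.72% of all tested genes, and none higher, beside 8.46%, with a median log2 ratio of -1.51. In CAL27/OXA 9 were lower, beside 9.28%, and none higher, beside 6.54%, with a median of -2.19. KRT5, the basal keratin and the most abundant of them, had 2973 FPKM in CAL27, then 536 in CAL27/5FU and 726 in CAL27/OXA. ELF3, an epithelial ETS factor, had 7125, 2463 and 742 counts, with log2 ratios of -1.54 and -3.45. OVOL1, a zinc finger factor of epithelial differentiation, had 404, 147 and 30 counts, with ratios of -1.45 and -3.85, and thus the order of the lines seen for TMPRSS13 and TMPRSS4. GRHL2, the grainyhead factor of epithelia, had 4659, 1686 and 1463 counts, with ratios of -1.47 and -1.86. The 4 markers that were lowest in CAL27/5FU were KRT5, the desmosomal cadherin DSG3 (4244, 1762 and 2375 counts), the keratin KRT14 and the basal factor TP63, KRT14 with -5.94 in CAL27/5FU and -2.98 in CAL27/OXA, and TP63 with -1.28 and 0.13. E-cadherin, CDH1, was within 2-fold at -0.14 and -0.16. EPCAM, an epithelial adhesion molecule on the same list, was within 2-fold at 0.39 and 0.03. Most but not all of the squamous markers were thus lower where TMPRSS13 and TMPRSS4 were, and their part in those ratios was not tested.

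Markers of fibroblasts, endothelium and leukocytes summed to 4886, 4040 and 7488 counts in CAL27, CAL27/5FU and CAL27/OXA over 11 genes, of which 8 were tested. COL1A2, LUM and CDH5 were higher past 2-fold in both resistant lines, beside 8.46% of all tested genes in CAL27/5FU and 6.54% in CAL27/OXA. VWF was lower past 2-fold in CAL27/5FU (log2 ratio -1.14) and stood at -0.75 in CAL27/OXA, and COL1A1, a collagen chain with 1387, 1068 and 1050 counts, stood at -0.38 and -0.59. LUM, a collagen-binding proteoglycan, had 120, 414 and 877 counts, and CDH5, the endothelial cadherin, had 43, 338 and 163. The most abundant was CD68, a lysosomal protein of macrophages that tumour cells can also express, at 41.4, 27.0 and 64.1 FPKM, whereas PTPRC, which defines leukocytes, had 2, 0 and 0 counts. The part of these markers in the values of TMPRSS15 was not tested.

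The other membrane-anchored serine proteases were read from a list of 15, of which 9 were tested. In CAL27/5FU 2 were higher past 2-fold, beside 8.46% of all tested genes, and none lower, beside 6.72%, with a median log2 ratio of 0.34. In CAL27/OXA 1 was higher, beside 6.54%, and 1 lower, beside 9.28%, with a median of -0.08. Nothing is read from these small counts. TMPRSS2, a protease known from prostate and airway that primes viral spike proteins, had 91 counts in CAL27, then 751 in CAL27/5FU and 24 in CAL27/OXA. It was highest in CAL27/5FU, with a log2 ratio to CAL27 of 3.01 (2.72 to 3.37), and lowest in CAL27/OXA, at -2.02 (-2.83 to -1.45). In FPKM it stood at 0.676, 6.25 and 0.171, so in CAL27/5FU its level was above the 2.34 FPKM of TMPRSS4. CORIN, the protease of atrial natriuretic peptide, had 4, 14 and 16 counts, with ratios of 1.42 and 1.43. PRSS21, the anchored protease testisin, was the most abundant of the list at 8.36, 15.2 and 13.5 FPKM and stayed within 2-fold, at 0.69 and 0.56.

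Substrates and partners of these enzymes were within 2-fold in CAL27/5FU for all 12 that were tested of 15, with a median of 0.17. Of all tested genes 15.2% were past 2-fold there. In CAL27/OXA 5 were lower, beside 9.28% of all tested genes, and none higher, beside 6.54%, with a median of -0.06. SCNN1A, the alpha subunit of the epithelial sodium channel, had 11193 counts in CAL27, then 11716 in CAL27/5FU and 5037 in CAL27/OXA, with log2 ratios of 0.06 and -1.34. PLAU, urokinase, was the most abundant of the list in CAL27/OXA at 232 FPKM and stayed within 2-fold in both lines. FLG, profilaggrin, which prostasin helps to process in epidermis, had 72, 56 and 10 counts, with ratios of -0.36 and -2.79. MST1, the precursor of macrophage-stimulating protein, had 84, 113 and 42 counts, with ratios of 0.41 and -1.15. HGFAC, the activator of hepatocyte growth factor, had 14, 25 and 0 counts, at least 5.32-fold lower in CAL27/OXA than in CAL27. SCNN1A, FLG, MST1 and HGFAC were therefore low in CAL27/OXA and within 2-fold of CAL27 in CAL27/5FU.

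Other serine protease inhibitors numbered 20, of which 13 were tested. In CAL27/5FU 3 were higher, beside 8.46% of all tested genes, and 2 lower, beside 6.72%, with a median of 0.06. In CAL27/OXA 1 was higher, beside 6.54%, and 5 lower, beside 9.28%, with a median of -0.38. Between the resistant lines 8 were lower in CAL27/OXA, beside 8.38%, and none higher, beside 4.18%, with a median of -2.02. TFPI, the Kunitz-type inhibitor of tissue factor, had 11 counts in CAL27, then 1332 in CAL27/5FU and 49 in CAL27/OXA, with a log2 ratio to CAL27 of 6.68 (6.07 to 7.92) in CAL27/5FU. Without the prior count TFPI was 121-fold higher in CAL27/5FU and 3.91-fold higher in CAL27/OXA. PI3, the elastase inhibitor elafin of squamous epithelia, had 1845, 204 and 55 counts, with ratios of -3.17 and -5.20, and was the list member that was lower past 2-fold in both lines, as TMPRSS13 and TMPRSS4 were. SLPI, the secretory leukocyte protease inhibitor, had 3422, 3595 and 1007 counts, with ratios of 0.06 and -1.95.

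Serpins, which trap their protease in a covalent complex, were also among the called inhibitors. SERPINA3, antichymotrypsin, had 2589, 3252 and 189 counts in CAL27, CAL27/5FU and CAL27/OXA, with log2 ratios of 0.32 and -3.95. SERPINA5, the protein C inhibitor, had 325, 590 and 35 counts, with ratios of 0.85 and -3.33, and SERPINI1, neuroserpin, had 233, 363 and 117, with ratios of 0.63 and -1.17. These 3 were thus past 2-fold only in CAL27/OXA, where they were lower. SERPINA1, alpha-1-antitrypsin, had 554, 2008 and 504 counts, with ratios of 1.85 and -0.32. SERPINE2, a thrombin inhibitor that also blocks prostasin, had 108, 648 and 94 counts, with ratios of 2.56 and -0.38. The most abundant gene of the list was APP, whose longer isoforms hold a Kunitz domain, at 373, 363 and 379 FPKM, close to the level of SPINT2 in each library.

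**Figure D5:**
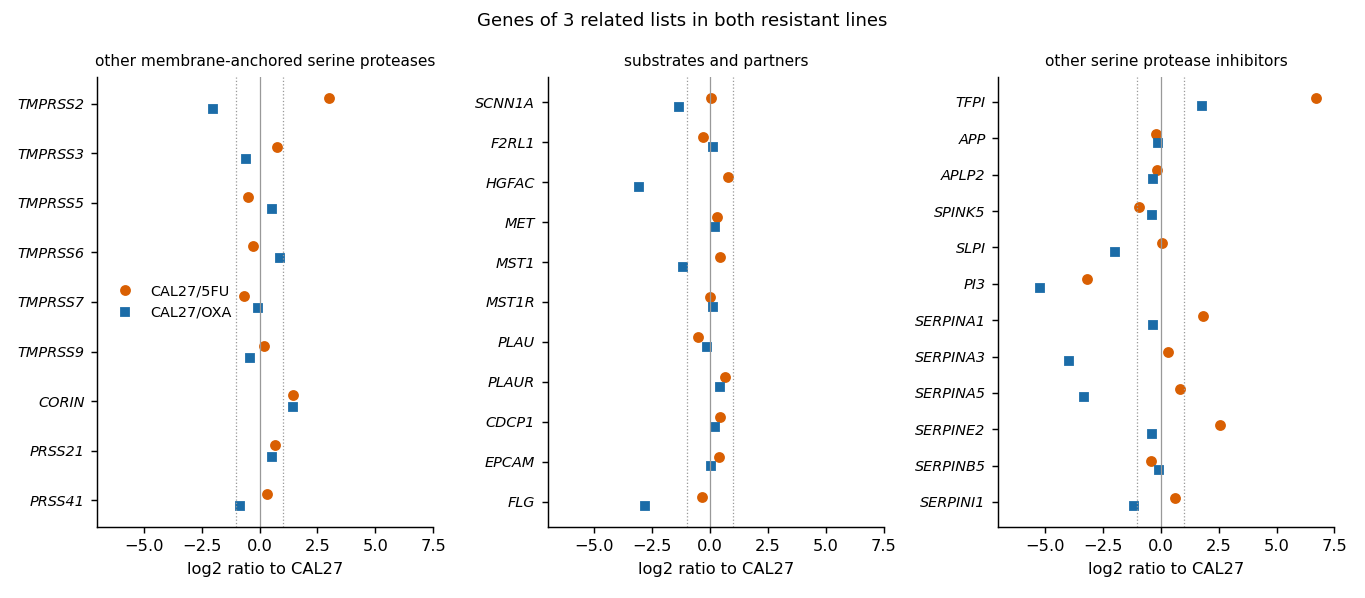
Log2 ratio to CAL27 of the tested genes of the 3 related lists that are reported here, with circles for CAL27/5FU, squares for CAL27/OXA and dotted lines at 2-fold. TMPRSS2 stands on opposite sides in the 2 lines, the substrates shown keep to within 2-fold in CAL27/5FU, and SERPINA3, SERPINA5 and PI3 lie below -3 in CAL27/OXA, where HGFAC had 0 counts and its symbol depends on the prior count.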

How the data were processed

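RNA-seq values of 3 libraries were used, 1 for each of CAL27, CAL27/5FU and CAL27/OXA. The authors deposited read counts per gene symbol, without normalization, and FPKM values. Total RNA was made into NEBNext Ultra libraries and sequenced by Novogene. The submitters' processing notes name CASAVA 1.8, HISAT2 2.0.5 and GRCh38. The counting tool, the annotation and the use of strand are not given in the sources used here. A further 3 columns of each table carry no sample label and were left out of every step. Their names read as a second library of each line, so they may be replicates, and the limit to 1 library comes from the labels. Every gene counted in all 3 libraries (14367 of 14367) had 1 gene length within 0.1% from its count, FPKM and library total, so the deposited FPKM values are scaled by total counts alone.

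Counts were scaled with TMM factors of 0.932, 1.05 and 1.02 (edgeR 4.0.16, R 4.3.3), and genes that averaged at least 10 counts were tested, that is, compared with the threshold of 2-fold. With 1 labelled library per line edgeR's replicate test could not be fitted. One count stood for 0.0257, 0.0255 and 0.0225 CPM. Intervals were computed with SciPy 1.17.1. The steps were tested on simulated data. Positions and sequences came from GENCODE 29 and RefSeq. The alternatives were scaling by total counts, by DESeq2 1.42.0 size factors, by the upper quartile or by TMM over the compared libraries, other filters and prior counts, and FPKM.

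The members and the gene lists were chosen with earlier results of these data known. The genes named are the members, list genes past 2-fold in either resistant line or most abundant, the 5 genes most like TMPRSS13 and TMPRSS15, and the neighbours described. CDH1, COL1A1, EPCAM, F2RL1, TMPRSS3, PLAU, PRSS1, PTPRC, the 4 enterocyte markers at 0, FABP2 and SI were named after their values were seen. Some genes that the list counts include are not reported here.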

Additional observations from a re-analysis of the deposited data

Results flagged for a closer look

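Genes of the lists whose log2 ratio to CAL27 had opposite signs in the 2 resistant lines, with the 95% counting interval on its own side of 0 in each, are given here. The difference was not tested, since 1 library per line was used, and both ratios share the CAL27 library. Among the members this held for SPINT1, at 0.039 in CAL27/5FU and -0.41 in CAL27/OXA. Among the other proteases it held for TMPRSS2, at 3.01 and -2.02, and for TMPRSS3, which is known for hereditary deafness, at 0.75 and -0.59. Of these 3 genes TMPRSS2 alone was past 2-fold in both lines.

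Among the substrates and partners SCNN1A stood at 0.059 in CAL27/5FU and -1.34 in CAL27/OXA, and MST1 at 0.41 and -1.15. F2RL1, the gene of protease-activated receptor 2, had the reverse signs, at -0.32 and 0.11. Among the other inhibitors SERPINA1 stood at 1.85 and -0.32, SERPINA3 at 0.32 and -3.95, SERPINA5 at 0.85 and -3.33 and SERPINI1 at 0.63 and -1.17, all higher in CAL27/5FU and lower in CAL27/OXA. Among the cell type markers TP63 stood at -1.28 and 0.13 and CD68 at -0.79 and 0.50.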

How the results depend on the processing

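Of 23 member ratios 21 kept their sign and 22 their side of 2-fold under up to 10 alternatives. Changes of the filter leave a member's ratio as it is, so those alternatives match by construction. The 7 values of other sign, of 227, were all of SPINT2. TMPRSS13 in CAL27/OXA against CAL27/5FU was -2.86 with a prior count of 5, -1.95 with log2(FPKM + 0.1) and -0.36, under 2-fold, with log2(FPKM + 1), a pseudocount above both levels. With log2(FPKM + 1) and log2(FPKM + 0.1), TMPRSS13 was -1.57 and -2.93 in CAL27/5FU and -1.94 and -4.87 in CAL27/OXA, TMPRSS4 -1.49 and -1.80, and -2.79 and -4.20, and TMPRSS15 in CAL27/OXA 1.91 and 4.84 against CAL27 and 1.90 and 4.66 against CAL27/5FU. TMPRSS4 in CAL27/OXA against CAL27/5FU was -1.29 with log2(FPKM + 1). TMPRSS13 and TMPRSS15 in CAL27/OXA against CAL27 were -6.15 and 6.46 with a prior count of 5, and -9.45 and 9.77 with one of 0.5, where TMPRSS13 was -5.99 against CAL27/5FU.

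The counts of genes higher and lower moved with the limits set. In CAL27/5FU they were 1899 and 1555 with no filter, 503 and 311 with log2(FPKM + 1), 404 and 286 past 4-fold and 749 and 593 with the whole interval past 2-fold, and 760 were higher at a mean of at least 50 counts. In CAL27/OXA they were 1348 and 1925, 368 and 481, and 296 and 412 under the first 3 of these, and 526 were higher by the interval. Between the resistant lines they were 981 and 1861, 165 and 437, 167 and 352, and 319 and 709, and 369 were higher at a mean of at least 50 counts. Total counts moved the median of all genes to 0.17 in CAL27/5FU and 0.14 in CAL27/OXA. No paired analysis was possible because each line has 1 library with a sample label, and for the same reason none could be left out. The unlabelled columns, which may be replicates, were not used. Depth limits the TMPRSS11 genes, at 18 counts or fewer.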

Other observations

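Around the other members some genes were past 2-fold while the member was not. The genes named here were chosen after their values were seen, and all were lower than in CAL27. Of the 10 tested neighbours of SPINT1, which are not named here, 1 was higher and 1 lower in CAL27/5FU. In CAL27/OXA 2 of them were higher and 1 lower. Near PRSS8 on chromosome 16, PYCARD, the inflammasome adaptor, had 1688 counts in CAL27, then 625 in CAL27/5FU and 531 in CAL27/OXA, with log2 ratios to CAL27 of -1.44 and -1.85. The integrin genes ITGAM and ITGAX beyond it had 176, 27 and 38 counts and 93, 27 and 55 counts, with ratios of -2.63 and -2.34 and of -1.72 and -0.92. PRSS8 itself stood at -0.63 and -0.51.

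Near ST14 on chromosome 11, BARX2, a homeobox factor of epithelia, had 61, 26 and 2 counts, and ARHGAP32 had 1429, 970 and 749 counts, with ratios of -0.56 and -1.12. ST14 stood at -0.29 and -0.74. No ratio is given for BARX2, which had 2 counts in CAL27/OXA.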
